A study of Mus musculus with 8 samples.

Results

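Iron handling and iron-sulfur cluster assembly were followed through 8 genes in quadriceps femoris (QF) muscle of mice, namely Nfs1, Iscu, Isca1, Isca2, Glrx5, Tfrc, Fth1 and Ftl1. They were picked by name, and all 8 were found among the 14012 genes of the count table. RNA was sequenced from 4 mice with a skeletal muscle-specific knockout of Grpel1 and from 4 Grpel1 flox/flox control mice, 1 library per animal. In the knockout mice a tamoxifen-inducible Cre-ERT2, driven by the human skeletal α-actin promoter, is meant to remove Grpel1 from muscle fibres alone. Mice were injected with tamoxifen at 5 weeks of age on 5 consecutive days. Control mice carried the floxed allele. The study kept floxed controls with Cre but no tamoxifen and others with tamoxifen but no Cre, which of them were sequenced is not stated, and the labels give no treatment for either group. An effect of tamoxifen or of Cre therefore cannot be told apart from that of the deletion. The age at which the sequenced muscles were taken is not given in the labels.

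Iron-sulfur clusters are cofactors of the respiratory chain and of many other enzymes, and mitochondria are where their assembly starts. NFS1 takes sulfur from cysteine, ISCU is the scaffold on which the cluster is built, and the mitochondrial HSP70 (encoded by Hspa9), whose nucleotide exchange factor is GRPEL1, helps to release the cluster from ISCU. GLRX5 passes the cluster on, and ISCA1 and ISCA2 act in making the larger 4-iron clusters. The iron enters most cells through the transferrin receptor TFRC and is stored in ferritin, a shell of heavy (FTH1) and light (FTL1) chains. Iron regulatory proteins bind hairpins called iron-responsive elements when iron is scarce, which blocks translation of ferritin mRNA and protects Tfrc mRNA from decay.

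These hairpins are a sequence feature of some transcripts of iron handling, among them those of Tfrc, Fth1 and Ftl1. The GENCODE M21 transcripts (GRCm38, the build of the count table) were searched for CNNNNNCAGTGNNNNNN, in which the 5 bases on each side of the 6-base loop CAGTGN pair with each other, with G to T pairs allowed, on the transcript strand alone. The 3 genes of uptake and storage held matches, printed here with 6 flanking bases on each side and the loop in capitals, since their loops and stems are what the iron regulatory proteins read. Fth1 (chr19:9982732-9982760, plus strand) and Ftl1 (chr7:45459779-45459807, minus strand) each held 1 match in the 5′ UTR. With the flank included, these end 109 and 147 bases before the start codon. Tfrc held 4 matches in its 3′ UTR, all on the plus strand, at chr16:32631219-32631247, chr16:32631598-32631626, chr16:32631663-32631691 and chr16:32631710-32631738.
Fth1: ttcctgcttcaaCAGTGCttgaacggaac
Ftl1: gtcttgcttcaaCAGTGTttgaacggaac
Tfrc match 1: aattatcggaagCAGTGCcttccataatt
Tfrc match 2: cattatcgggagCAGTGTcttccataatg
Tfrc match 3: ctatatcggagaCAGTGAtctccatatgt
Tfrc match 4: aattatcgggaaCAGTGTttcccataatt
The paired stem was the same in Fth1 and Ftl1, whereas it differed among the 4 elements of Tfrc. No match was found in the annotated transcripts of Nfs1, Iscu, Isca1, Isca2 or Glrx5. The pattern is strict: of 10 transcripts known to carry an element, 5 (Slc11a2, Epas1, Cdc14a, Cdc42bpa and Pfn2) held no match either, so no match does not show that an element is absent. Such a match is rare: with 1 transcript per gene, 0.0966% of 21732 protein-coding genes held one in the 5′ UTR, and 0.0693% held one in the first 200 bases of the transcript. Of 3912 3′ UTRs at least as long as that of Tfrc (2458 bases), 1.02% held a match within that length, and Tfrc was the 1 transcript that held 4. A match is a description of these letters and says nothing about binding in these samples.

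The libraries held 16017565 to 20361144 counts. Whole-gene counts of Grpel1 did not separate the groups (68.4 ± 3.04 CPM in control and 65.3 ± 6.11 CPM in knockout, SD, n = 4), with adjusted p = 0.487 in edgeR, so they do not check the labels. All values below are CPM, the count per 1000000 counts of the library, over library sizes scaled by TMM, a method that assumes that most genes do not change. The TMM factors ran from 0.747 to 0.844 in control and from 1.19 to 1.33 in knockout libraries. Summed CPM of 8 muscle fibre markers, led by Myh4 and Acta1, was 193304 to 246817 in control and 69632 to 98501 in knockout. Of the 8, 6 were lower, and Myh1 (log2 change 1.15) and Des (0.82), named after their values were seen, were higher. Direction therefore depends on the scaling. By edgeR's quasi-likelihood test at an adjusted p under 0.01, 3303 of all 14012 genes (23.6%) were higher and 2962 (21.1%) lower in knockout, 44.7% in all, with a median log2 change of 0.07. With library totals alone, 8498 were higher and 873 lower, and the median rose to 0.73. Counts and medians of lists given below for that setting are to be read beside these values.

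Of the 8 genes, the receptor Tfrc and the assembly genes Isca1 and Nfs1 fell, and both ferritin chains rose, so 2 genes (25%) were called higher and 3 (37.5%) lower. Iscu, Isca2 and Glrx5 did not pass the threshold. For 7 of the 8 genes no knockout library overlapped a control library, 3 above and 4 below, and 53.4% of all genes had groups apart in this way. With 44.7% of all genes called, these counts say little by themselves, and the values of each gene are given in turn. In bulk muscle, a loss of cells of one type and less RNA per cell cannot be told apart.

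**Figure D1:**
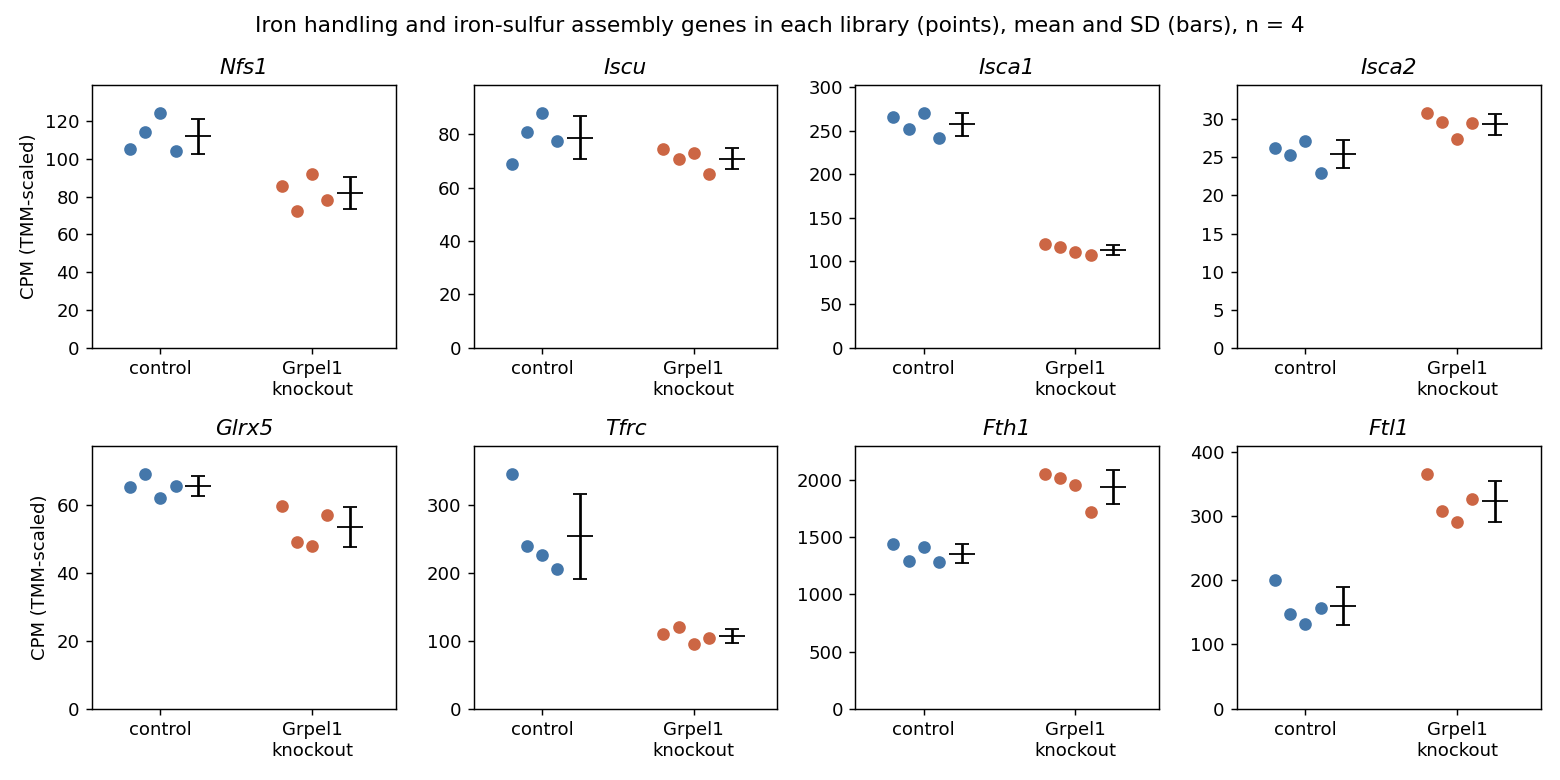
CPM over TMM-scaled library sizes (y axis, from 0) of each of the 8 genes in the 4 control and 4 knockout libraries; points are libraries in the order of their replicate numbers, bars the mean and SD. Iscu is the one gene whose groups overlap, and the control library at 345 CPM stands above the other control libraries in Tfrc.

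Of the assembly genes, Isca1 changed most. It was measured at 266, 252, 270 and 241 CPM in the control libraries and at 120, 116, 110 and 107 CPM in the knockout libraries. Replicates lay close together, and the highest knockout library was far below the lowest control library. The log2 change was -1.19 (SE 0.0695, 95% confidence interval -1.34 to -1.03, adjusted p = 6.97e-07 in edgeR), which left 43.9% of the control level. Isca1 (Entrez 69046) lies at chr13:59755415-59769789 on the minus strand.

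Isca2 (Entrez 74316, chr12:84773270-84775089, plus strand), which encodes the partner of ISCA1, did not fall with it. Its values were 26.3, 25.3, 27.2 and 22.9 CPM in control and 30.8, 29.6, 27.5 and 29.6 CPM in knockout. All knockout libraries were above all control libraries, by a small margin. The log2 change of 0.21 (SE 0.0742, interval 0.04 to 0.37, adjusted p = 0.0334 in edgeR) did not pass the threshold.

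Nfs1 (Entrez 18041, chr2:156123637-156144186, minus strand), the cysteine desulfurase, fell to 73.3% of control. The control libraries held 105, 114, 124 and 104 CPM and the knockout libraries 85.6, 72.3, 91.9 and 78.3 CPM, without overlap. The log2 change was -0.45 (SE 0.0916, interval -0.65 to -0.24, adjusted p = 0.00199 in edgeR). The span of Nfs1 overlaps Romo1 on the opposite strand, which had 8041 counts in all against 14255 of Nfs1 and a log2 difference of -0.25 (adjusted p = 0.0237 in edgeR). The kit keeps strand, but whether the counting used it is not stated, and without it reads of the shared bases cannot be assigned to one gene.

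Iscu (Entrez 66383, chr5:113772812-113778282, plus strand), the scaffold, was measured at 68.7, 80.8, 87.9 and 77.5 CPM in control and at 74.3, 70.8, 73.0 and 65.1 CPM in knockout. The groups overlapped. The log2 difference of -0.15 (SE 0.0839, adjusted p = 0.143 in edgeR) had an interval of -0.34 to 0.03, so a loss of the size seen for Isca1 lies outside it. Glrx5 (Entrez 73046, chr12:105032618-105040911, plus strand), the glutaredoxin that carries the cluster onward, was at 65.1, 69.1, 62.0 and 65.6 CPM in control. It was at 59.7, 49.0, 47.9 and 57.1 CPM in knockout, below every control library. Its log2 change of -0.29 (SE 0.0845, interval -0.48 to -0.10) just missed the threshold with adjusted p = 0.0131 in edgeR. It passed with adjusted p = 0.00643 without knockout replicate 1, which was the highest knockout library, and with adjusted p = 9.4e-04 in DESeq2.

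On the side of iron handling, the receptor and the store moved in opposite directions. Tfrc (Entrez 22042, chr16:32608896-32632794, plus strand), which brings transferrin-bound iron into the cell, was at 345, 239, 226 and 205 CPM in control and at 110, 120, 95.1 and 104 CPM in knockout. Control replicate 1 was far above the others, but even the lowest control library had more than the highest knockout library. The log2 change was -1.24 (SE 0.155, interval -1.59 to -0.90, adjusted p = 7.82e-05 in edgeR), and across the fits that each left out 1 library it ran from -1.33 to -1.06.

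Fth1 (Entrez 14319, chr19:9980600-9985111, plus strand), which encodes the chain that oxidizes iron for storage, was at 1439, 1291, 1414 and 1286 CPM in control and 2057, 2017, 1962 and 1723 CPM in knockout. The groups were apart, with a log2 change of 0.51 (SE 0.092, interval 0.31 to 0.72, adjusted p = 8.55e-04 in edgeR). Ftl1 (Entrez 14325, chr7:45457944-45459886, minus strand), the light chain, was at 201, 148, 131 and 157 CPM in control and at 366, 308, 292 and 327 CPM in knockout. It rose by 1.02 on the log2 scale (SE 0.13, interval 0.73 to 1.31, adjusted p = 9.06e-05 in edgeR), to 203% of control. GENCODE M21 names 5 copies of these genes (Fth-ps2, Fth-ps3, Ftl1-ps1, Ftl1-ps2 and Ftl2-ps). As the authors left out reads that map to several places, the ferritin levels are uncertain.

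Scaling bears on these directions. With library totals alone, the log2 changes of Isca1 (-0.52), Tfrc (-0.56), Fth1 (1.19), Ftl1 (1.69) and Isca2 (0.88) kept their sign. Those of Nfs1 (0.22, adjusted p = 0.0138 in edgeR), Iscu (0.52, adjusted p = 2.49e-04 in edgeR) and Glrx5 (0.37, adjusted p = 0.00627 in edgeR) turned positive, so Iscu and Glrx5 were then called higher. Measured from the median gene of that fit, Nfs1 stood at -0.51, Iscu at -0.22, Glrx5 at -0.36 and Isca2 at 0.15, so each lay on the same side of the median gene as before.

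**Figure D2:**
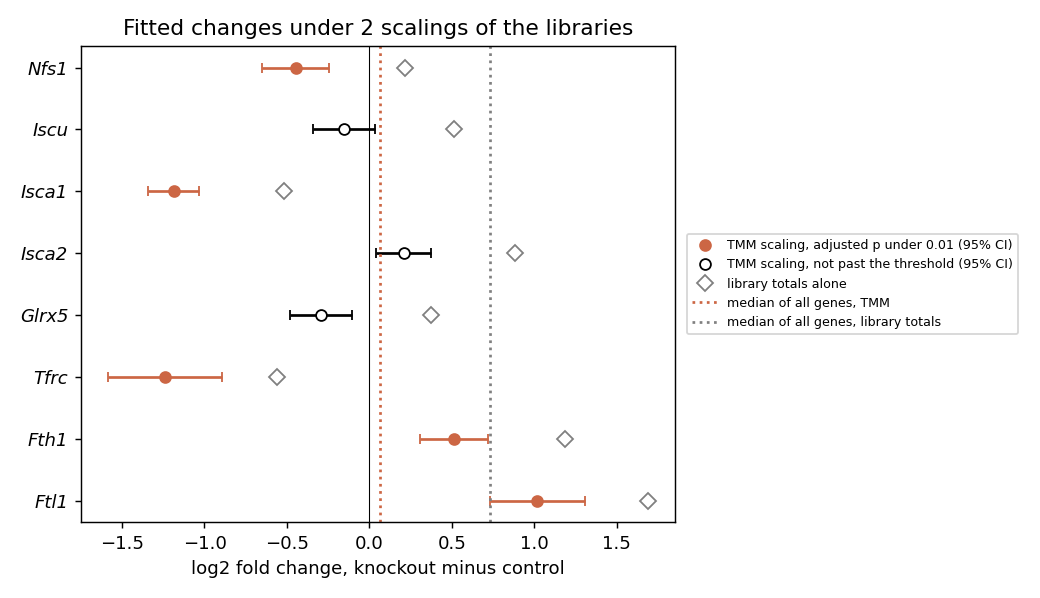
Log2 fold change (x axis, knockout minus control) of the 8 genes from edgeR with TMM scaling (circles, bars are 95% confidence intervals) and with library totals alone (diamonds); dotted lines mark the median of all genes at 0.07 and 0.73. Isca1 and Tfrc lie below 0 and both ferritin genes above 0 under either scaling, while Nfs1, Iscu and Glrx5 change side.

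Ratios between a pair of genes in the same library do not depend on the scaling at all. Tfrc counts were 0.240, 0.185, 0.160 and 0.159 of the Fth1 counts in control and 0.0535, 0.0593, 0.0485 and 0.0606 in knockout. Receptor relative to heavy chain was thus 3.32-fold lower in knockout (log2 difference -1.73). The Fth1 to Ftl1 ratio was 7.15, 8.71, 10.8 and 8.18 in control and 5.62, 6.54, 6.73 and 5.27 in knockout. The light chain therefore rose more than the heavy chain, by 1.43-fold (log2 difference of the ratio -0.52). The Isca1 to Isca2 ratio was tight in both groups, at 10.1, 9.99, 9.94 and 10.5 in control and 3.89, 3.92, 4.01 and 3.60 in knockout. That is a 2.63-fold drop (log2 difference -1.40), the ratio with the least spread between replicates. Nfs1 to Iscu fell from 1.53, 1.41, 1.41 and 1.34 to 1.15, 1.02, 1.26 and 1.20 (log2 difference -0.30), so the desulfurase fell relative to its scaffold. In each of the 4 ratios the groups were apart, with p = 0.0286 in a two-sided exact permutation test, the smallest that 4 against 4 libraries allow, and 0.0286 after adjustment over the 4 ratios. Fth1 to Ftl1 gave p = 0.0571 (exact permutation test) without any one of the 4 knockout libraries, with log2 differences of -0.57 to -0.46, and Nfs1 to Iscu gave p = 0.0571 in the same test without control replicate 1, at -0.27.

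**Figure D3:**
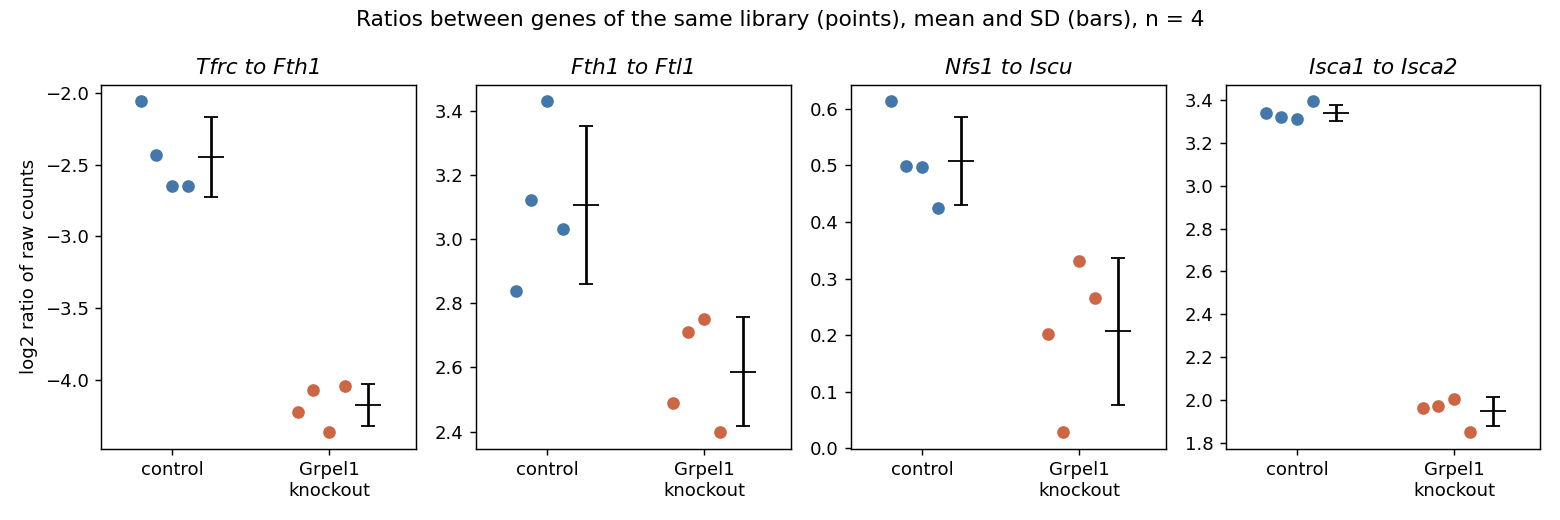
Log2 ratio of raw counts (y axis, each panel with its own range) between a pair of genes in each control and knockout library; points are libraries, bars the mean and SD. The knockout libraries lie below the control libraries in all 4 panels, and replicates lie closest in Isca1 to Isca2.

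Levels of different genes were compared per kb of exon. Fth1 was the most abundant in both groups, at 898 ± 53.1 CPM per kb in control and 1284 ± 99.0 CPM per kb in knockout (SD, n = 4). Ftl1 came next in both, at 164 ± 30.7 and 333 ± 33.0 CPM per kb. In control it was followed by Isca1 (134 ± 6.90), whose libraries overlapped those of Ftl1, and then by Iscu (88.7 ± 8.99), Glrx5 (65.3 ± 2.90), Nfs1 (54.5 ± 4.56), Tfrc (51.6 ± 12.8) and Isca2 (29.3 ± 2.11 CPM per kb). Nfs1 and Tfrc overlapped as well, and the other neighbours were apart. In knockout the order was Iscu (79.9 ± 4.58), Isca1 (59.0 ± 3.09), Glrx5 (53.3 ± 5.85), Nfs1 (39.9 ± 4.16), Isca2 (33.8 ± 1.61) and Tfrc (21.8 ± 2.09 CPM per kb). There, Isca1 overlapped Glrx5, and Nfs1 overlapped Isca2. Isca1 thus moved from above to below Iscu, and Tfrc from above Isca2 to the lowest place. The mean FPKM values in the deposited table gave the same order in each group.

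**Figure D4:**
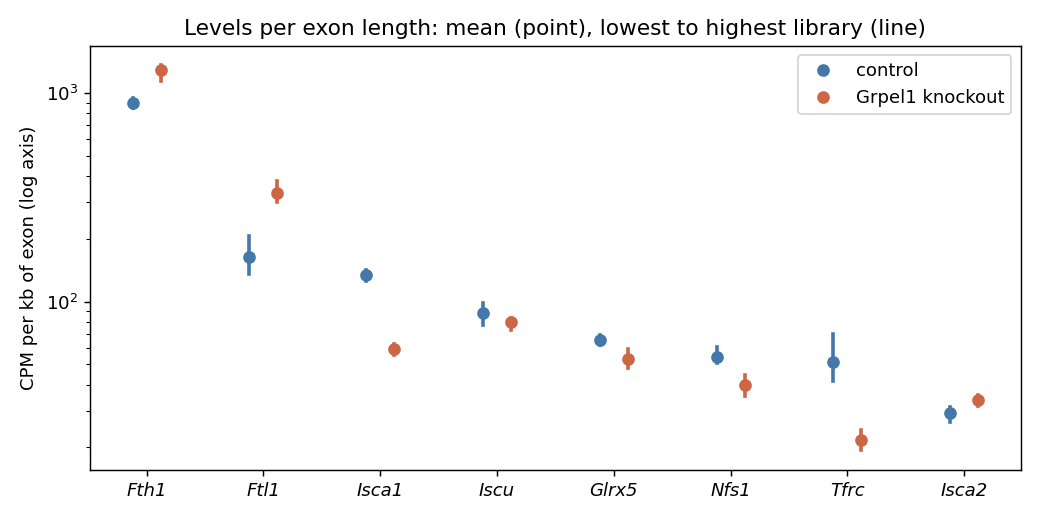
CPM per kb of exon (y axis, log scale) of the 8 genes in control and knockout; points are means of 4 libraries and lines run from the lowest to the highest library. Isca1 and Tfrc drop in rank, while Fth1 and Ftl1 lie highest in both groups.

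In the list of early assembly genes, which includes Nfs1, Iscu and Glrx5, 3 of 9 genes were higher (33.3%, against 23.6% of all genes) and 2 lower (22.2%, against 21.1%), with a median log2 change of 0.03. The median was -0.12 without control replicate 4 and 0.15 without control replicate 1 or 3. Scaled by library totals alone, 7 were higher, 0 lower and the median was 0.71. Hspa9, the HSP70 that GRPEL1 serves, rose from 604 ± 37.8 to 1328 ± 104 CPM (log2 change 1.14, adjusted p = 3.98e-06 in edgeR). Lyrm4, the small partner of NFS1 also called ISD11, rose from 5.59 ± 0.934 to 11.9 ± 0.954 CPM (log2 change 1.09), while NFS1's own transcript fell. Fdxr, the ferredoxin reductase that supplies electrons, rose by 0.77 on the log2 scale. Ndufab1, the acyl carrier protein bound to LYRM4, was lower with Nfs1, at a log2 change of -0.47, or 0.20 with library totals alone.

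In the late steps, which include Isca1 and Isca2, 1 of 7 genes was higher (14.3%, against 23.6% of all genes). Lower were 2 (28.6%, against 21.1%), and the median was 0.07. With library totals alone 4 were higher and 1 lower (median 0.74). Nfu1, which delivers 4-iron clusters to target enzymes, rose from 40.7 ± 3.21 to 89.0 ± 6.43 CPM (log2 change 1.13, adjusted p = 1.99e-06 in edgeR). Bola3, its partner in that step, fell from 68.1 ± 5.47 to 44.5 ± 2.75 CPM (log2 change -0.62, but 0.054 with library totals alone). Isca1 was the other gene lower in this list.

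Of 6 genes for iron supply to mitochondria and export of sulfur, 2 were higher and 2 lower (median 0.32). These are 33.3% each, against 23.6% and 21.1% of all genes. 1 gene was lower with upper-quartile factors, with the mean of 8 adipocyte markers as a covariate, and without any one of control replicates 2, 3 and 4 or knockout replicates 2, 3 and 4. By library totals alone, 4 were higher and 0 lower. Slc25a37 (mitoferrin 1, an iron importer of the inner membrane) rose by 0.58 and Slc25a39, a carrier of the same membrane, by 0.96 on the log2 scale. The transporters Abcb10 (-0.52, from 36.9 ± 2.82 to 25.7 ± 1.81 CPM) and Abcb8 (-0.34) were lower, and stood at 0.15 and 0.32 with library totals alone. The list of cytosolic assembly had 7 of 11 genes higher (63.6%, against 23.6% of all genes) and 2 lower (18.2%, against 21.1%), with a median of 0.55. With library totals alone all 11 were higher, as were 8498 of all 14012 genes. Of the 11, 8 lay above and 3 below the median gene of that fit. The 2 lower came down to 1 with upper-quartile factors, with the adipocyte covariate and without any one of the 4 control libraries, and to 0 without knockout replicate 1 or 4. Ciapin1, an electron carrier of that pathway, rose from 20.4 ± 2.995 to 60.2 ± 6.28 CPM (log2 change 1.56, adjusted p = 2.43e-06 in edgeR). Bola2 rose by 0.86 and Mms19, a targeting factor, by 0.84, whereas Ciao1 (-0.34) and Narfl (-0.23) were lower, or higher at 0.33 and 0.44 with library totals alone.

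Among proteins that receive the clusters, 11 of 15 mitochondrial genes (73.3%) were lower (21.1% of all genes were) and 0 higher, with a median of -0.59. With library totals alone, 1 was lower, 5 were higher and the median was 0.08, or -0.66 measured from the median gene of that fit, and 14 of the 15 lay below that gene. The largest log2 changes were those of Ndufs1 (-1.03, from 478 ± 22.2 to 234 ± 12.4 CPM), Uqcrfs1 (-0.83) and Ndufs7 (-0.81), which encode subunits of complexes I and III. In the cytosolic and nuclear list, 3 of 20 genes were higher and 3 lower (15% each, against 23.6% and 21.1% of all genes), with a median of 0.24. The median was 0.089 without knockout replicate 1 and 0.13 without knockout replicate 2. With library totals alone 17 were higher, 0 lower and the median was 0.91, beside 8498 of all 14012 genes higher and a median of 0.73. Pole (DNA polymerase epsilon) had a log2 change of 1.03, Rsad2 (viperin) of 0.76 and Abce1, a ribosome recycling factor, of 0.36. Cdkal1 (-0.97) and Tyw1 (-0.29), both tRNA-modifying enzymes, and Ppat (-0.82), of purine synthesis, were lower, with Tyw1 at 0.38 with library totals alone.

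Around the receptor, 2 of 9 genes of iron uptake were higher and 2 lower (median -0.20). At 22.2% each, these counts are near the shares of all genes (23.6% and 21.1%). The median was 0.14 without control replicate 1, -0.34 without knockout replicate 1 and -0.060 without knockout replicate 3. With library totals alone 3 were higher, 1 lower and the median was 0.47, or -0.27 measured from the median gene of that fit. Steap3, the reductase that acts on iron released from transferrin in endosomes, fell with Tfrc, from 45.3 ± 5.81 to 19.8 ± 3.81 CPM (log2 change -1.20, adjusted p = 5.04e-05 in edgeR). Slc39a14, a transporter of iron not bound to transferrin, rose from 19.5 ± 0.866 to 26.2 ± 1.80 CPM (log2 change 0.42). Steap1, named after its values were seen, was the other gene higher, from 0.0506 ± 0.0633 to 1.27 ± 0.200 CPM, and its control level is too near 0 for a fold. Tfr2 was not analysed here.

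Around ferritin, 3 of 5 genes of storage, both ferritin chains among them, were higher (60%, against 23.6% of all genes). Lower was 1 (20%, against 21.1%), and the median was 0.49. DESeq2 called 2 lower, and with library totals alone 4 were higher and 0 lower. Pcbp1, a chaperone that delivers iron to ferritin, rose from 136 ± 12.2 to 191 ± 12.9 CPM (log2 change 0.49). Its relative Pcbp2 went from 164 ± 10.99 to 117 ± 7.53 CPM (log2 change -0.49, or 0.18 with library totals alone). Ncoa4, the receptor for breakdown of ferritin, had a log2 change of -0.27 that did not pass (adjusted p = 0.0264 in edgeR), or 0.40 with library totals alone. For iron export, 1 of 4 genes was higher (25%, against 23.6% of all genes), or 2 with library totals alone. It was the ferroxidase Hephl1 (0.379 ± 0.300 to 2.10 ± 0.316 CPM). Lower were 0 (against 21.1% of all genes), or 1 without knockout replicate 3. The iron exporter Slc40a1 (ferroportin) was at 41.9 ± 5.06 and 28.8 ± 10.5 CPM, with overlap between the groups and adjusted p = 0.0638 in edgeR, and its log2 difference of -0.54 became 0.12 with library totals alone.

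The genes that read or regulate iron had 1 of 7 higher (14.3%, against 23.6% of all genes) and 3 lower (42.9%, against 21.1%). The median was -0.20, or -0.10 without control replicate 3 and -0.084 with the adipocyte covariate. With library totals alone 4 were higher, 1 lower and the median was 0.47, beside 8498 of all 14012 genes higher and a median of 0.73. Measured from the median gene of that fit, the list's median was -0.26, and 5 of the 7 lay below that gene. Neither iron regulatory protein passed the test: Aco1 (IRP1) had a log2 difference of 0.23 with adjusted p = 0.409 in edgeR and Ireb2 (IRP2) one of -0.09 with adjusted p = 0.255 in edgeR, or 0.57 with library totals alone. Fbxl5, which marks IRP2 for degradation when iron is plentiful, was lower at -0.47, or 0.20 with library totals alone. Hfe2 (hemojuvelin), abundant in muscle, fell from 987 ± 134 to 352 ± 91.2 CPM (log2 change -1.49, adjusted p = 9.05e-05 in edgeR), and its signalling ligand Bmp6 by 0.74 on the log2 scale. Hfe, a partner of the transferrin receptors, rose by 0.61.

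For haem, 0 of 4 genes of breakdown were lower (against 21.1% of all genes) and 2 higher (50%, against 23.6%), with a median of 0.54. The count was 1 with the adipocyte covariate and without any one of control replicates 2 and 3 or knockout replicates 1 and 2, and 4 with library totals alone. The list was led by Hmox1 (haem oxygenase 1), which rose from 7.44 ± 1.68 to 25.9 ± 1.13 CPM (log2 change 1.80, adjusted p = 3.19e-06 in edgeR). Blvrb, a biliverdin reductase, rose by 0.82. In haem synthesis 4 of 9 genes were lower (44.4%, against 21.1% of all genes) and 0 higher (against 23.6%). The median was -0.48, or -0.24 without knockout replicate 2. With library totals alone, 0 were lower and 4 higher (median 0.18), beside 8498 of all 14012 genes higher and a median of 0.73. Measured from the median gene of that fit, the list's median was -0.55, and 7 of the 9 lay below that gene. Mb, the haem protein myoglobin and one of the fibre markers, named after its values were seen, fell from 1196 ± 415 to 135 ± 13.6 CPM.

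Tfrc, Fth1 and Ftl1 belong to a list of 10 transcripts known to carry an iron-responsive element. Of these, 2 were higher (20%, against 23.6% of all genes) and 3 lower (30%, against 21.1%), with a median of -0.42. DESeq2 and the fit without knockout replicate 3 called 5 lower, beside 3480 and 2937 of all 14012 genes. With library totals alone 4 were higher, 2 lower and the median was 0.25, beside 8498 of all genes higher, 873 lower and a median of 0.73. Measured from the median gene of that fit, the list's median was -0.48, and 8 of the 10 lay below that gene. The 2 higher were the ferritin genes. Those lower were Tfrc, Cdc14a (-1.68) and Epas1 (-0.43, or 0.23 with library totals alone), which encodes the hypoxia-inducible factor HIF-2α. The other 5 genes, Slc11a2, Slc40a1, Alas2, Cdc42bpa and Pfn2, did not pass in the edgeR fit of all libraries, and of these Slc40a1 and Alas2 each held 1 match to the pattern in the 5′ UTR.

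**Figure D5:**
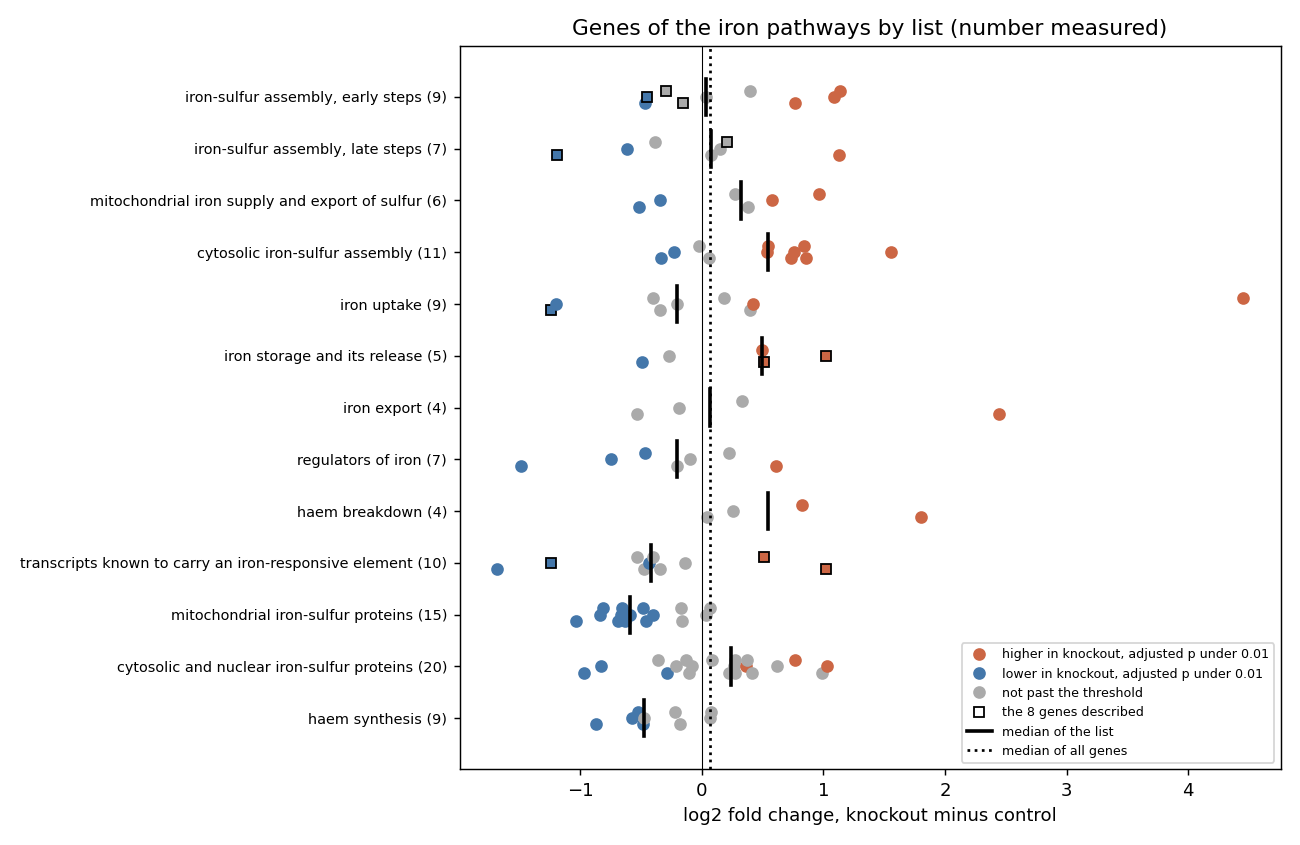
Log2 fold change (x axis, knockout minus control, TMM scaling) of every measured gene in 12 lists of the iron pathways and in haem synthesis, 1 list per row; colours give the call at adjusted p under 0.01, squares the 8 genes described, thick bars list medians, and the dotted line the median of all genes at 0.07. Mitochondrial iron-sulfur proteins lie mostly to the left (their median turns to 0.08 with library totals alone), cytosolic assembly mostly to the right, and the point farthest right is Steap1, near 0 in control.

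Markers of other cells moved with the groups in part. Of 10 macrophage markers, 1 was called (10%, against 23.6% of all genes higher), Cd68, which rose from 3.44 ± 1.72 to 20.8 ± 3.74 CPM. DESeq2 called 4 and the fit with library totals alone 8, all higher. Of all 14012 genes, DESeq2 called 3251 higher and the fit with library totals alone 8498. At an unadjusted p under 0.05 in edgeR there were 6 (Adgre1, Cd68, Cd14, Lyz2, Ptprc and C1qa), 9 of the 10 had a positive log2 change, and the median was 0.75. Of all 14012 genes, 4436 were higher and 3848 lower even at an adjusted p under 0.05 in edgeR, so the 6 say little by themselves. The summed level of the list was 190, 89.3, 76.8 and 143 CPM in control and 154, 278, 180 and 228 CPM in knockout. Control replicate 1, which had the highest sum in control, also had the highest Tfrc and Ftl1 in control. Control replicate 4, with the next highest sum (143 CPM), had the next highest Ftl1 (157 CPM) but the lowest Tfrc (205 CPM) in control. Within the knockout libraries, replicate 1 had the lowest macrophage sum and the highest Ftl1, while replicate 2 had the highest sum and the highest Tfrc (120 CPM). None of 5 erythroid markers was called at an adjusted p under 0.01 in edgeR, nor at an unadjusted p under 0.05, nor in DESeq2. Their sum ran from 41.1 to 102 CPM in control and from 8.61 to 96.7 CPM in knockout. The 8 adipocyte markers varied widely within both groups (831 to 4996 and 1202 to 3738 CPM), with 0 called in edgeR or DESeq2 and 1, Retn, at an unadjusted p under 0.05 in edgeR. With their mean as a covariate, Tfrc stood at -1.32, Isca1 at -1.17, Nfs1 at -0.37, Fth1 at 0.53 and Ftl1 at 0.89, all with an adjusted p under 0.01 in edgeR. Of 5 endothelial markers 4 were lower (80%), with a sum of 243 to 360 against 175 to 196 CPM. Of 5 fibroblast markers 3 were lower (60%), with a sum of 985 to 1683 against 469 to 706 CPM. Among all genes 21.1% were lower. With library totals alone 0 endothelial markers and 1 fibroblast marker were lower. The part of macrophages, endothelial cells and fibroblasts in the changes of Tfrc and ferritin was not tested.

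Over the 8 libraries, the genes whose log2 CPM followed each of the 8 most closely, by root mean square difference after centring and among 11047 genes, were as follows. For Isca1 they were Idh3a, which encodes a subunit of mitochondrial isocitrate dehydrogenase (0.043), and Gfod2 (0.0625). For Nfs1 they were Fam134c and Hbp1, for Iscu Marf1 and Rdh13, for Glrx5 Slc31a1 and Dguok, and for Isca2 Ociad1 and Hmox2. For Tfrc they were D1Ertd622e (0.104) and Pdlim5 (0.108), for Fth1 Etf1 and Cenpq, and for Ftl1 Trmt10a and Ppia. Among the 8 genes themselves, the nearest to Tfrc was Isca1 (0.194) and the nearest to Ftl1 was Fth1 (0.317). The nearest to Fth1, however, was Isca2 (0.175). The points share the same libraries and the same difference between groups, so this likeness is a description.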

How the data were processed

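Polyadenylated RNA of QF muscle from 8 mice was sequenced as read pairs from directional NEBNext Ultra II libraries. The authors deposited raw counts per gene. They had trimmed the reads (bcl2fastq 2.20.0.422, cutadapt), aligned them to GRCm38 using STAR 2.5.4b and counted pairs over exons with Rsubread, dropping duplicates, chimeras, multimappers, poor alignments and genes of few reads. Annotation release and use of strand are not given in the sources used here. The FPKM values and exon widths are the authors' own. Their DESeq2 1.32.0 fold changes and p-values were not used.

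Counts of all 14012 genes were tested with edgeR 4.0.16 (R 4.3.3, quasi-likelihood, TMM, group as the only term, Benjamini-Hochberg adjustment). A gene was called at an adjusted p under 0.01. CPM was taken over TMM-scaled library sizes. Intervals are 95% confidence intervals of the fit. Single ratios were compared by exact permutation over 70 assignments. No replicates were alike within sampling noise (18.2 to 43.8 as chi-square over its degrees of freedom). In edgeR, p-values set the difference between groups against the spread between these animals, and in the ratio tests against reassigned group labels. Other genes named are, per list, up to 3 called genes in each direction with the largest change, from genes whose higher group averaged 50 counts or more, and always Lyrm4, Slc25a37, Slc40a1, Ncoa4, Ireb2, Aco1 and Hmox1. The 8 genes and all lists were chosen with earlier results of these data known. A few other listed genes are not reported here. Alternatives covered scaling, filter, fit, DESeq2 1.42.0, threshold, replicate block, adipocyte covariate and left-out libraries. The procedure was tested on simulated data in which few genes changed, as many up as down. That test did not cover the scaling of libraries whose composition differs between groups, as it does here.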

Additional observations from a re-analysis of the deposited data

Results flagged for a closer look

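Single libraries stood apart from the other 3 of their group, by Dixon's ratio, in 6 of 106 groups of 4 (the values of 49 genes and the 4 ratios), and chance flags about 1 group in 20. None was one of the 8 genes. In control, Fdxr had 1 library at 5.73 CPM, Cdc14a at 47.4 CPM and Cdkal1 at 38.1 CPM, each above the others, and Steap3 had 1 at 36.6 CPM, below the others. In knockout, Ciao1 had 1 library at 37.0 CPM and Cdc14a at 13.8 CPM, above the others.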

How the results depend on the processing

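The scaling decided most. With library totals alone, 8498 genes were higher and 873 lower, and 5 of the 8 genes were higher. Reversals were looked for in 49 genes, the 8 genes and those named by rule. Of these, the log2 change with library totals alone turned positive for Nfs1 (0.22), Iscu (0.52), Glrx5 (0.37), Ndufab1 (0.20), Bola3 (0.054), Abcb10 (0.15), Abcb8 (0.32), Ciao1 (0.33), Narfl (0.44), Pcbp2 (0.18), Ncoa4 (0.40), Slc40a1 (0.12), Ireb2 (0.57), Fbxl5 (0.20), Epas1 (0.23) and Tyw1 (0.38). In the full lists, 5 mitochondrial iron-sulfur genes and 4 of haem synthesis were then called higher, against 0 with TMM. That setting moves the median of all genes to 0.73. Aco1 turned to -0.025 with the adipocyte covariate, and the cause was not tested. Without 1 library in turn, Fth1 to Ftl1 ranged from -0.61 to -0.41 and Nfs1 to Iscu from -0.34 to -0.24 on the log2 scale. The 5 called genes of the 8 stayed called in all 8 such fits, and elsewhere except Nfs1 with library totals alone. Glrx5 was also called with RLE factors, with TMM without the most abundant genes, in DESeq2 and with the adipocyte covariate, all as lower, but Glrx5 and Iscu were called higher with library totals alone. Same-numbered libraries did not all deviate together (correlations 0.21, 0.035, 0.51 and 0.16), so the numbers were not taken as pairs. With the replicate block, 2 of the 8 genes were higher and 3 lower, and 3215 and 2908 of all genes, while the lower genes went from 2 to 1 in the lists of mitochondrial iron supply and of cytosolic assembly. Not every library correlated best with its own number. Ranges of genes of few counts, such as Hephl1 and Fdxr, are limited by depth.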
